A study of Rattus norvegicus with 24 samples.

Results

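The rows of the raw count matrix given as 5 glutamate receptor subunits, out of 32883 gene identifiers, were followed across the 24 libraries of a rat hippocampal RNA-seq study. They were chosen by identifier, as Grin1 (ENSRNOG00000011726), Grin2a (ENSRNOG00000033942), Grin2b (ENSRNOG00000008766), Gria1 (ENSRNOG00000045816) and Gria2 (ENSRNOG00000026649). None of the 5 was called for corticosterone, for training or for their interaction. Calls were rare among all 14838 genes tested. For corticosterone they were 0.93% averaged over training, 0.357% in untrained and 0.162% in trained rats. For training and for the interaction they were 0%. None of 25 tests of ratios between these rows within libraries passed. Across libraries, Gria1 and Grin2a varied together, with a Pearson correlation of 0.84 over 24 libraries. The row given as Gria2 held far fewer reads than Gria1 in every library, and it is called here by its identifier, ENSRNOG00000026649.

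The libraries come from snap-frozen dissected hippocampi of male Sprague-Dawley rats, in a design that crosses training with treatment. Corticosterone is the main glucocorticoid hormone of the rat, and the study concerns how glucocorticoids enhance the formation of memory. There were 7 libraries of rats given vehicle without training (untrained vehicle), 6 of rats given corticosterone without training (untrained corticosterone), 5 of rats trained and given vehicle (trained vehicle) and 6 of rats trained and given corticosterone (trained corticosterone). Libraries are named below by group and sample number. The labels give no age, training task, dose, time of sampling or batch, and nothing in them ties each sample to an animal of its own, so the spread behind each p-value is that between samples and may be technical. Levels are given in CPM, reads of a gene relative to the adjusted size of its library.

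AMPA and NMDA receptors are the ion channels that carry most fast excitatory transmission in the hippocampus. NMDA receptors need the obligatory subunit GluN1, encoded by Grin1, together with GluN2 subunits such as GluN2A (Grin2a) and GluN2B (Grin2b). They admit calcium when glutamate release coincides with depolarisation and so start many forms of synaptic plasticity, and the balance of GluN2A over GluN2B shapes how long the channel stays open. AMPA receptors are assembled from subunits such as GluA1 (Gria1), whose delivery to synapses strengthens them, and GluA2 (Gria2), which in its edited form keeps calcium out of the channel.

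The identifiers could not be checked against symbols. All 5 symbols occur in a RefSeq table (GRCr8, 47357 genes), but its Ensembl column held 0 entries, and the count matrix has no names. Other glutamate receptor subunits, auxiliary proteins, scaffolds and cell type markers on the lists of this work could therefore not be looked up, and the tissue label could not be checked against markers. ENSRNOG00000026649 had 519 to 683 reads per library, against 5744 to 9504 reads for Gria1 in the same libraries, so that Gria1 had 8.65 to 16.9 reads for each of its reads. Gria2 is known as an abundant AMPA receptor transcript of hippocampal principal neurons. The length counted for each gene is not at hand, so this ratio of reads is not a ratio of transcripts, but the row is not described below as Gria2.

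The RefSeq promoter table held a window for 1 of the 5 symbols, Grin1, whose transcript is needed for every NMDA receptor and varied least among the 4 named subunits. The window runs from 250 bases before to 50 bases after the start of the gene, at chr3:28528705-28529004 on the minus strand of GRCr8, with a GC content of 59.7%. It is shown because corticosterone acts through receptors that bind DNA, and capitals mark the GC box GGGCGG.

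Grin1: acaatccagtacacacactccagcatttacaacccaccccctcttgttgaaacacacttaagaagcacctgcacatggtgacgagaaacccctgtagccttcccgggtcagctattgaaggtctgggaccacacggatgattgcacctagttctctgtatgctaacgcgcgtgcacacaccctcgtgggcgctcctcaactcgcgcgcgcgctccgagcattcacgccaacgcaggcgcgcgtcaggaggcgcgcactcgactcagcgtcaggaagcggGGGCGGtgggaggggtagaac

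On both strands of this window the GC box had 1 match, at position 280 counted from the 5′ end. That position lies within the 50 bases after the start of the gene, not before it. Of 33469 rat promoter windows of the same length, 33.1% held at least 1 match. The hexamer AGAACA, which the glucocorticoid receptor recognises, had 0 matches, and 20.7% of the windows held it. These counts describe the letters of this window only.

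Each library held 13760331 to 16765088 reads assigned to genes. On the first principal component of all genes, which carried 31.5% of the variance, 8 libraries (6 corticosterone and 2 vehicle) stood apart from the other 16. The gene with the largest weight on it was at 1748 CPM or more in these 8 and at 458 CPM or less in the others.

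Grin1, the obligatory NMDA receptor subunit, was the most even of the named subunits. In untrained rats it lay between 648 and 767 CPM with vehicle (median 718) and between 646 and 785 CPM with corticosterone (median 732). In trained rats the vehicle libraries were at 695, 702, 715, 732 and 746 CPM, and the corticosterone libraries lay between 648 and 768 CPM (median 719). The groups overlapped throughout, and 8 of 12 corticosterone libraries lay within the range of the vehicle libraries. Untrained rats averaged 714 ± 43.7 CPM with vehicle (SD, n = 7) and 722 ± 60.5 CPM with corticosterone (SD, n = 6). Trained rats averaged 718 ± 20.9 CPM with vehicle (SD, n = 5) and 714 ± 44.1 CPM with corticosterone (SD, n = 6). The order of these means has no neighbours that differ beyond their spread. The coefficient of variation over all libraries was 5.93%, where the median was 9.23% over the 13795 genes that averaged 1 CPM or more. These genes were not matched to Grin1 in level.

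Grin2a, which encodes the GluN2A subunit, varied more between libraries of the same group than between groups. It ranged from 161 to 236 CPM in untrained vehicle (median 203) and from 173 to 225 CPM in untrained corticosterone libraries (median 202). In trained vehicle libraries it was at 167, 197, 201, 206 and 208 CPM, where the lowest value is library 10, and in trained corticosterone libraries it ranged from 164 to 211 CPM (median 188). All 12 corticosterone libraries lay within the range of the vehicle libraries. The coefficient of variation over 24 libraries was 10.7%.

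Grin2b, which encodes the GluN2B subunit, had the widest spread of the 5 rows, with a coefficient of variation of 12.6%. It ranged from 65.6 to 84.5 CPM in untrained vehicle (median 74.9) and from 57.4 to 88.8 CPM in untrained corticosterone libraries (median 77.2). In trained rats it was at 59.0, 65.3, 70.6, 73.2 and 79.0 CPM with vehicle and between 61.1 and 91.5 CPM with corticosterone (median 76.7). The trained vehicle mean was the lowest, at 69.4 ± 7.62 CPM (SD, n = 5), and the trained corticosterone mean the highest, at 77.6 ± 10.8 CPM (SD, n = 6), and their libraries overlapped. Of the 12 corticosterone libraries, 3 lay above and 1 below every vehicle library.

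Gria1, the AMPA receptor subunit GluA1, had its lowest group mean in trained corticosterone libraries, at 481 ± 60.2 CPM (SD, n = 6), against 525 ± 60.9 (SD, n = 7), 531 ± 41.1 (SD, n = 6) and 530 ± 65.9 CPM (SD, n = 5) in untrained vehicle, untrained corticosterone and trained vehicle libraries. The trained corticosterone libraries ranged from 377 to 552 CPM (median 482). Trained vehicle libraries were at 417, 541, 543, 563 and 586 CPM, so that library 10 stood below the other 4. Untrained vehicle libraries ranged from 418 to 594 CPM (median 540) and untrained corticosterone libraries from 475 to 577 CPM (median 544). The libraries of the 4 groups overlapped, and 11 of 12 corticosterone libraries lay within the vehicle range, the exception being trained corticosterone library 3, the lowest of all 24.

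ENSRNOG00000026649 was nearly as even as Grin1, with a coefficient of variation of 6.09% and levels of 34.1 to 43.6 CPM. Its trained vehicle libraries lay close together, at 38.7, 38.8, 38.9, 39.3 and 40.8 CPM. Of the 6 trained corticosterone libraries, 5 were below all of these, from 35.5 to 38.0 CPM, and library 3 was above all of them at 43.6 CPM. Untrained libraries ranged from 34.98 to 39.1 CPM with vehicle (median 38.1) and from 34.1 to 40.9 CPM with corticosterone (median 36.7).

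**Figure D1:**
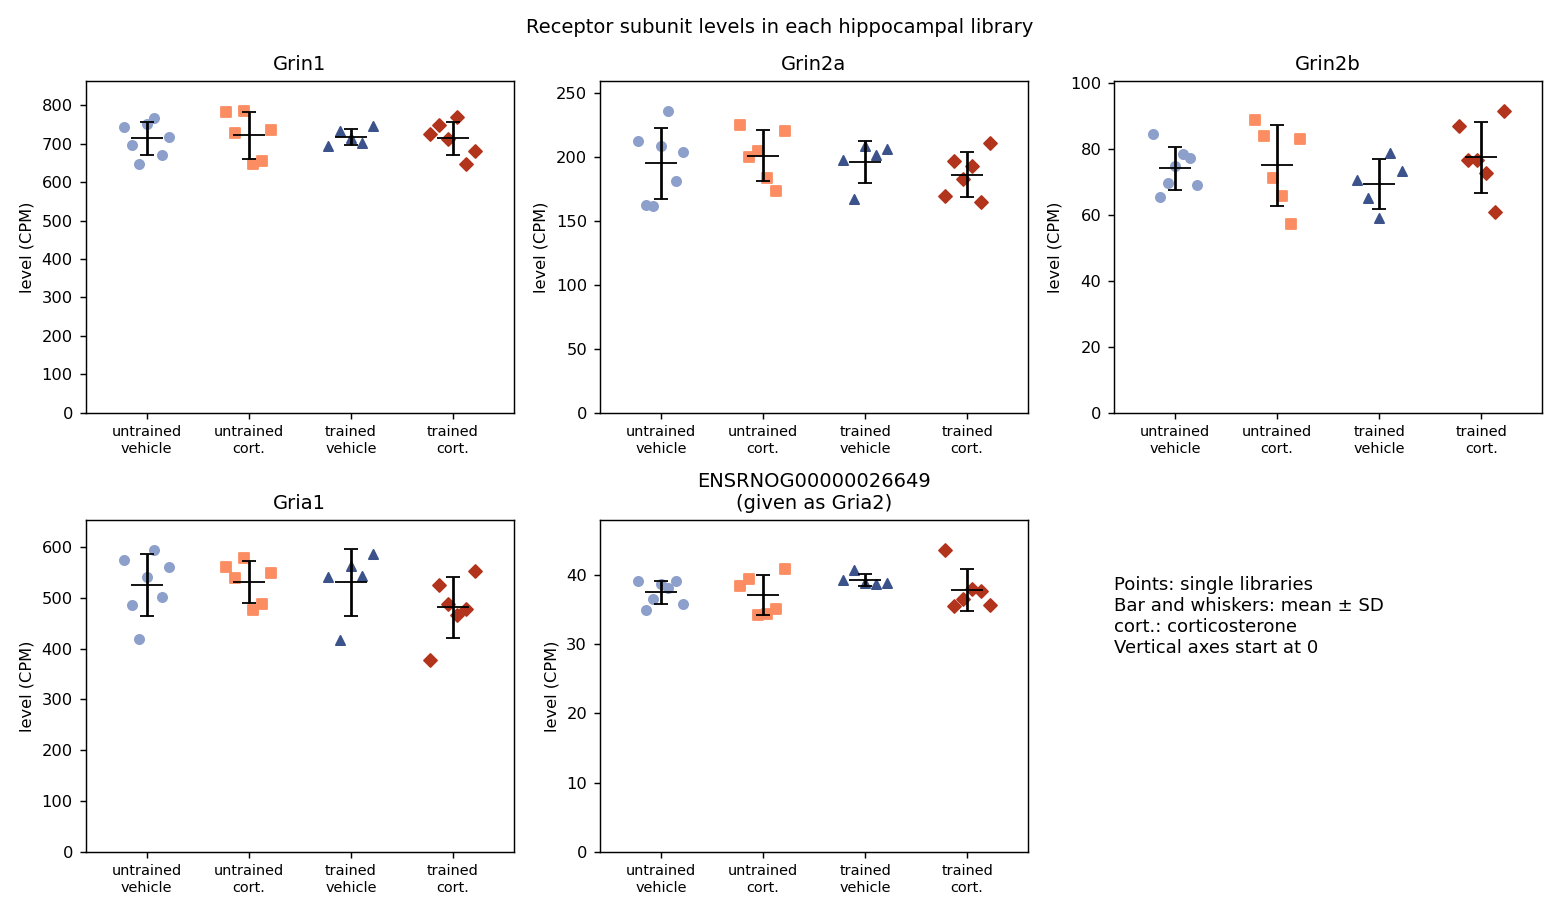
Level in CPM (vertical axes, from 0) of Grin1, Grin2a, Grin2b, Gria1 and ENSRNOG00000026649 in the 4 groups (horizontal axes). Each point is 1 library, and bars with whiskers are the mean ± SD of 7, 6, 5 and 6 libraries. The ranges of the groups overlap in every panel, for the trained groups of ENSRNOG00000026649 only through library 3, and the lowest Gria1 value, 377 CPM, is a trained corticosterone library.

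The first comparison set corticosterone against vehicle with untrained and trained rats weighted equally. All 5 rows passed the filter on low counts, and 0 of the 5 were called by edgeR at an adjusted p under 0.05, where 0.93% of the 14838 genes tested were called. Unadjusted p-values under 0.05 were found for 0 of the 5 rows with edgeR and for 1372 of all genes (9.25%), and DESeq2 called 0 of the 5, with 0 under 0.05 unadjusted. Grin1 had a log2 fold change of 0.00 (95% interval -0.07 to 0.08, edgeR adjusted p = 0.992), so that the interval reached from 0.95-fold to 1.06-fold. Intervals reached from 0.906-fold to 1.08-fold for Grin2a (log2 fold change -0.02, edgeR adjusted p = 0.979), from 0.96-fold to 1.18-fold for Grin2b (0.09, edgeR adjusted p = 0.806) and from 0.874-fold to 1.05-fold for Gria1 (-0.06, edgeR adjusted p = 0.88). For ENSRNOG00000026649 the log2 fold change was -0.04, with an interval of 0.926-fold to 1.03-fold (edgeR adjusted p = 0.879). With 1 library left out at a time, the Gria1 value ranged from -0.10 (without trained vehicle library 10) to -0.03 (without trained corticosterone library 3), and the Grin2b value fell to 0.06 without untrained corticosterone library 4. For ENSRNOG00000026649 it reached -0.06 without trained corticosterone library 3. The median log2 fold change was -0.02 over the 5 rows and 0.00 over all genes tested.

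In untrained rats the estimate of the corticosterone effect was close to 0 for every row, but the intervals were wider. They reached from 0.94-fold to 1.09-fold for Grin1, 0.915-fold to 1.16-fold for Grin2a and 0.881-fold to 1.16-fold for Grin2b. For Gria1 they reached from 0.894-fold to 1.15-fold and for ENSRNOG00000026649 from 0.921-fold to 1.06-fold, so differences of this size could not be told from none. The log2 fold changes lay between -0.02 for ENSRNOG00000026649 and 0.04 for Grin2a, and 0 of the 5 rows were called by edgeR, against 0.357% of all genes. In trained rats, where 0.162% of all genes were called, 0 of the 5 rows were called either, and the estimates of all rows but Grin1 were farther from 0. Grin2b had a log2 fold change of 0.16 (SE 0.11, 95% interval -0.06 to 0.38, edgeR adjusted p = 0.779) and Gria1 one of -0.14 (SE 0.09, 95% interval -0.34 to 0.06, edgeR adjusted p = 0.784). Neither differed beyond the spread between libraries. The Grin2a value of -0.07 ranged from -0.13 (without trained vehicle library 10) to -0.04 (without trained corticosterone library 33). The Gria1 estimate depended on single libraries, since it was -0.22 without trained vehicle library 10 and -0.08 without trained corticosterone library 3. Without both libraries the Gria1 value was -0.15 (edgeR adjusted p = 0.646, with a range of 0.467 to 0.947 over the alternative fits of this result). In each state 0 of the 5 rows had an unadjusted p under 0.05 with edgeR or with DESeq2, and DESeq2 called 0.

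The comparison of trained with untrained rats, averaged over treatment, asked whether training went with a change in these rows. None of the 5 rows (0) was called by edgeR, and 0% of all genes tested were. The log2 fold change was -0.00 for Grin1 (95% interval -0.08 to 0.07), -0.05 for Grin2a (-0.18 to 0.08), -0.02 for Grin2b (-0.17 to 0.12), -0.06 for Gria1 (-0.20 to 0.07) and 0.05 for ENSRNOG00000026649 (-0.03 to 0.13), each with an edgeR adjusted p of 0.999. Without trained vehicle library 10 and trained corticosterone library 3 the Gria1 value was 0.0034. With 1 library left out at a time, the training values ranged from -0.09 to -0.03 for Gria1, from -0.07 to -0.03 for Grin2a and from 0.03 to 0.06 for ENSRNOG00000026649, and those of Grin1 and Grin2b turned in sign (-0.02 to 0.0088 and -0.06 to 0.0066). Whether corticosterone acted differently with training was tested with the interaction, in which the corticosterone log2 fold change of untrained rats is subtracted from that of trained rats. It was -0.16 for Gria1 (SE 0.13), 0.14 for Grin2b (SE 0.14), -0.12 for Grin2a (SE 0.12), -0.04 for ENSRNOG00000026649 (SE 0.07) and -0.02 for Grin1 (SE 0.07). Leaving out 1 library at a time gave -0.23 to -0.10 for Gria1, the latter without trained corticosterone library 3, and 0.08 to 0.20 for Grin2b, the former without untrained corticosterone library 29. The ranges were -0.17 to -0.08 for Grin2a and -0.08 to -0.01 for ENSRNOG00000026649, and Grin1 turned in sign (-0.05 to 0.0035). None passed (edgeR, 0 of 5, smallest adjusted p = 0.962, with 0% of all genes called), and 0 of the 5 had an unadjusted p under 0.05 for training or for the interaction. DESeq2 called 0 of the 5 in either comparison, and 0 had an unadjusted p under 0.05 with it. The interval of the interaction reached from 0.9-fold to 1.36-fold for Grin2b and from 0.745-fold to 1.08-fold for Gria1, so differences of this size could not be told from none.

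**Figure D2:**
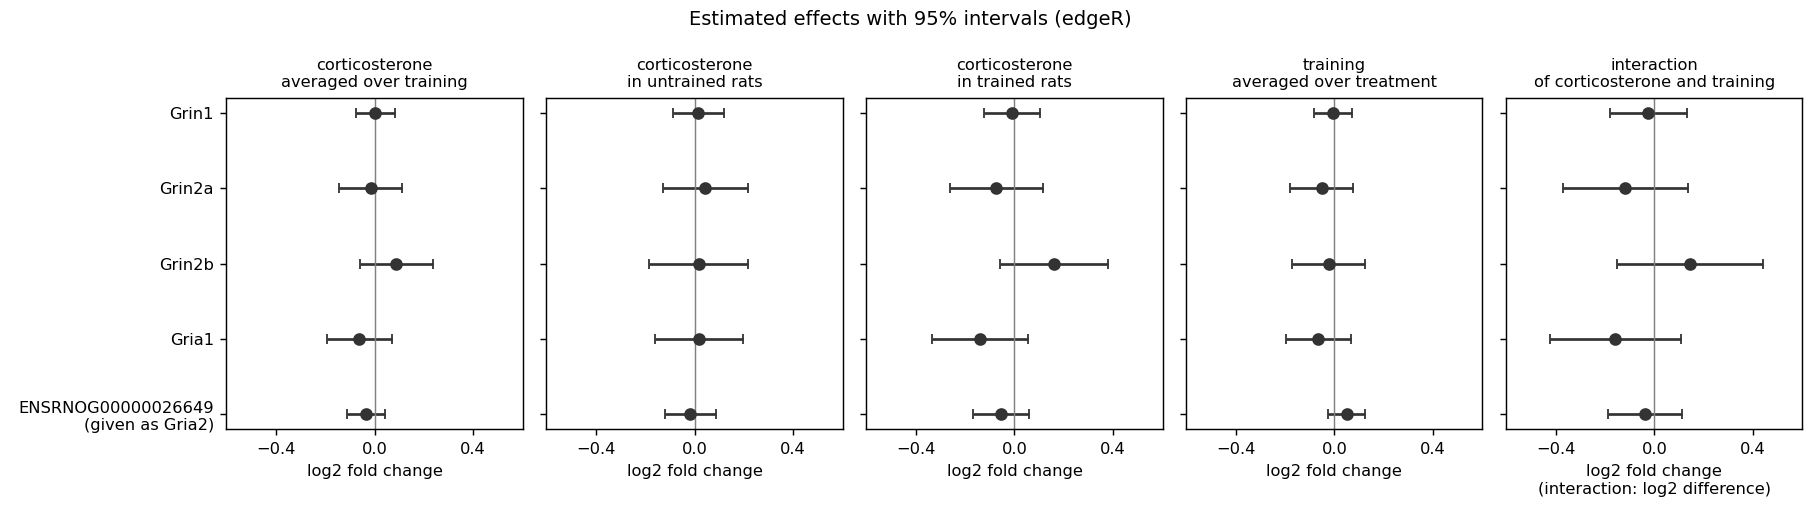
Log2 fold change (horizontal axes, points) with its 95% interval from edgeR (whiskers) for the 5 rows (vertical axis) in each of 5 comparisons (panels), the last of which is the difference between 2 log2 fold changes. Every interval includes 0, and the widest belong to Grin2b and Gria1 in the interaction.

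Ratios of read counts within a library do not depend on library size. They were compared across libraries only, since gene length cancels there and not in the level of a ratio. Of the reads of the 3 NMDA receptor subunits, Grin1 took 69.2% to 75.9%, Grin2a 17.2% to 21.8% and Grin2b 6.01% to 9.31% over the 24 libraries. Gria1 had 0.384 to 0.573 reads for each read of the 3 NMDA subunits together. The lowest of these was trained corticosterone library 3 and the highest trained vehicle library 20.

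The ratio of Grin2a to Grin2b, the pair whose balance shifts as hippocampal synapses mature, had the smallest p-value of the ratios tested. Trained vehicle libraries had 2.55, 2.56, 2.79, 2.81 and 3.53 Grin2a reads for each Grin2b read. Trained corticosterone libraries had 1.94 to 2.69 (median 2.47), untrained vehicle libraries 2.32 to 2.998 (median 2.51) and untrained corticosterone libraries 2.37 to 3.02 (median 2.71). Trained corticosterone library 3 was the lowest of all 24 and trained vehicle library 20 the highest, and the remaining libraries of both trained groups overlapped. With corticosterone, trained rats had a mean log2 ratio of 1.27 ± 0.18 (SD, n = 6), and with vehicle one of 1.498 ± 0.19 (SD, n = 5). The difference of -0.23 did not pass (exact two-sided permutation test over 462 splits, p = 0.0519, adjusted p = 0.726 over the 25 tests of ratios). Its 95% interval from the pooled spread of the 4 groups, which assumes normal errors, was -0.43 to -0.03. Without trained vehicle library 20 the difference was -0.15, and the difference ranged from -0.27 to -0.15 when each library was left out in turn. In untrained rats the difference was 0.05 (exact two-sided permutation test over 1716 splits, p = 0.571), and the interaction of -0.28 did not pass either (two-sided permutation test, p = 0.0581, adjusted p = 0.726). For the interaction, treatment labels were permuted within each training state. Its p-value therefore assumes no effect of corticosterone in either state, not only equal effects.

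The other ratios showed smaller differences against their spread. Of the 25 tests 0 passed, and 0 had an unadjusted p under 0.05 (permutation tests). Grin2b to Grin1 had a log2 difference of 0.17 in trained rats (95% interval -0.04 to 0.38) and -0.01 in untrained rats (-0.20 to 0.18). Grin2a to Grin1 differed by -0.06 (-0.22 to 0.09) and 0.04 (-0.11 to 0.18) in the same order. For Gria1 to Grin1, trained corticosterone libraries ranged from 0.520 to 0.811 Gria1 reads for each Grin1 read (median 0.693), and trained vehicle libraries were at 0.569, 0.774, 0.778, 0.787 and 0.787. Untrained vehicle libraries ranged from 0.645 to 0.780. Untrained corticosterone libraries lay within 0.716 to 0.745, with an SD of the log2 ratio of 0.02 (n = 6). That SD was 0.10 in untrained vehicle (n = 7), 0.20 in trained vehicle (n = 5) and 0.23 in trained corticosterone libraries (n = 6). The log2 difference with corticosterone was -0.13 in trained (95% interval -0.33 to 0.07) and 0.01 in untrained rats (-0.17 to 0.19). For Gria1 to ENSRNOG00000026649 these differences were -0.08 (-0.35 to 0.18) and 0.04 (-0.20 to 0.29). The trained difference of this last ratio turned to 0.03 without trained corticosterone library 3 and was -0.18 without trained vehicle library 10. Without the same libraries, in that order, the trained difference of Gria1 to Grin1 was -0.06 and -0.22, and that of Grin2a to Grin1 was -0.03 and -0.13. For Grin2b to Grin1 it ranged from 0.10 (without trained corticosterone library 40) to 0.22. In untrained rats the differences of these 4 ratios turned in sign when 1 library was left out.

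**Figure D3:**
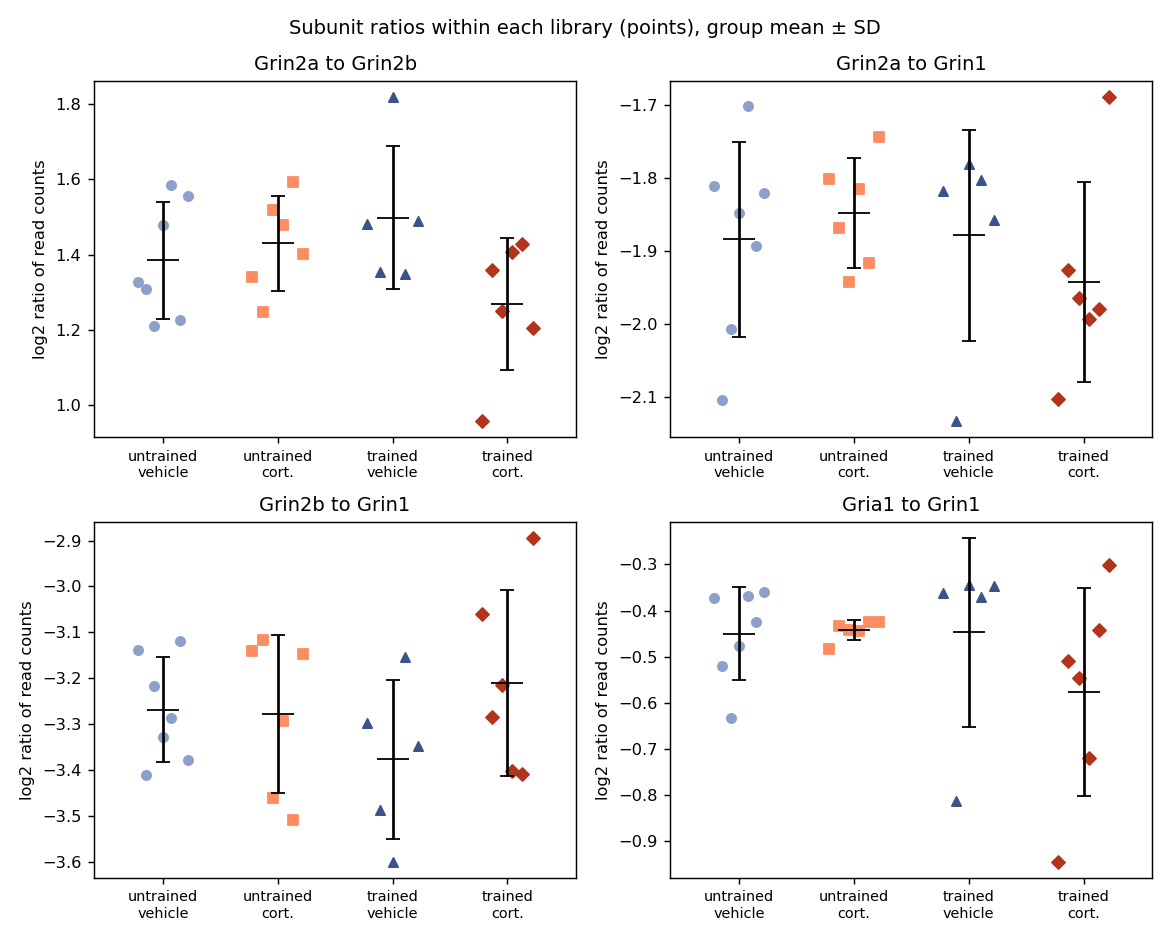
Log2 ratio of the read counts of 2 subunits within a library (vertical axes, not starting at 0) in the 4 groups (horizontal axes), for the 4 ratios among named subunits. Points are libraries and bars with whiskers are the mean ± SD. For Grin2a to Grin2b the trained corticosterone group has the lowest mean, 1.27 against 1.498 with trained vehicle, and for Gria1 to Grin1 trained vehicle library 10 and trained corticosterone library 3 are the 2 lowest points.

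How the rows varied together was measured by the correlation of log2 CPM over the 24 libraries, which share their scaling, for 10 pairs. Gria1 and Grin2a were the closest pair (Pearson r = 0.84, Spearman rho = 0.86). For both measures the permutation p was 1e-05, the smallest that 1e+05 resamples can give, with an adjusted p of 1e-04 over the 10 pairs. The relation was present within corticosterone libraries (r = 0.78, n = 12) and within vehicle libraries (r = 0.91, n = 12). It was 0.84 without the 2 libraries farthest from the median of Grin2a, untrained vehicle libraries 7 and 17, and 0.84 after group means were subtracted. On that last scale, 16 of the 13790 other genes that averaged 1 CPM or more followed Grin2a more closely than Gria1 did, and 60 followed Gria1 more closely than Grin2a did.

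Grin1 followed Grin2a (r = 0.63, rho = 0.59, permutation p = 0.00101 and 0.00286, adjusted p = 0.00505 and 0.0143), with r = 0.58 without untrained vehicle library 17 and untrained corticosterone library 19, 0.76 within the 8 libraries apart on the first component and 0.57 within the other 16. Grin2a followed Grin2b less closely (r = 0.50, rho = 0.53, permutation p = 0.013 and 0.00849, adjusted p = 0.0433 and 0.0283), with r = 0.47 without untrained vehicle libraries 7 and 17. That relation was 0.81 within the 8 libraries and 0.26 within the 16, so it was weak in the larger set. Neither pair stood out among the 13790 other genes after group means were subtracted. Of these, 523 (3.79%) followed Grin1 more closely than Grin2a did, and 388 (2.81%) followed Grin2a more closely than Grin1 did. Likewise, 581 (4.21%) followed Grin2a more closely than Grin2b did, and 181 (1.31%) followed Grin2b more closely than Grin2a did. Grin2b and Gria1 had an r of 0.20 and a rho of 0.31 (permutation p = 0.349 and 0.143, adjusted p = 0.388 and 0.204), and Grin1 and Gria1 an r of 0.41 and a rho of 0.47 (permutation p = 0.0465 and 0.021, adjusted p = 0.0931 and 0.0526), so neither pair passed. The Grin1 and Gria1 value rose to 0.65 without trained vehicle library 10 and trained corticosterone library 3 (permutation test, adjusted p = 0.0033), in which Gria1 was low and Grin1 was not. These 2 libraries were chosen after their values were seen.

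Gria1 and ENSRNOG00000026649 had an r of -0.21 and a rho of 0.01 (permutation p = 0.317 and 0.966, adjusted p = 0.388 and 0.966). The r was 0.31 without the 2 libraries farthest from the Gria1 median, which are again trained vehicle library 10 and trained corticosterone library 3, so the sign rests on them. Within the 8 libraries apart it was 0.37 and within the 16 it was -0.51. Of the other 13790 genes, 76.5% followed Gria1 more closely than this row did after group means were subtracted. That share includes trained vehicle library 10 and trained corticosterone library 3 and was not taken again without them. Its remaining pairs had an r of 0.26 with Grin1, 0.09 with Grin2a and 0.36 with Grin2b, and none passed (permutation tests, adjusted p = 0.325, 0.669 and 0.137), with rho values of 0.18, 0.17 and 0.36. The last pair, Grin1 and Grin2b, had an r of 0.44 and a rho of 0.38 (permutation tests, adjusted p = 0.0795 and 0.139).

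**Figure D4:**
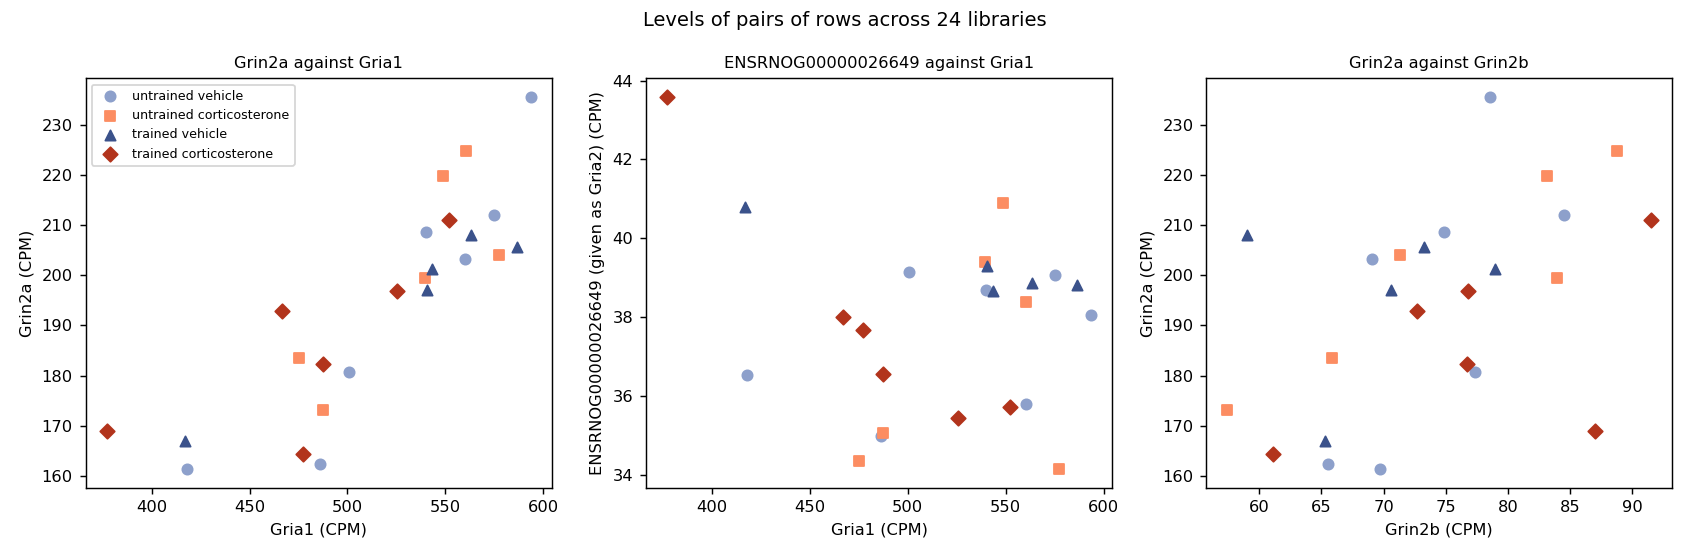
Level in CPM of Grin2a against Gria1, of ENSRNOG00000026649 against Gria1 and of Grin2a against Grin2b (axes do not start at 0), with 1 point per library and marks for the 4 groups. Grin2a rises with Gria1 (r = 0.84 on the log2 scale), and ENSRNOG00000026649 is highest, at 43.6 CPM, in the library with the lowest Gria1 level of 377 CPM.

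The genes most like each row were sought among the same 13790 genes, by the Pearson correlation of log2 CPM over 24 libraries with group means subtracted. The best match was ENSRNOG00000025584 for Grin1 (r = 0.93), ENSRNOG00000002863 for Grin2a (r = 0.91), ENSRNOG00000020058 for Grin2b (r = 0.82) and ENSRNOG00000024730 for Gria1 (r = 0.95). The files do not pair these identifiers with names. An r over 0.8 was reached by 106 genes with Gria1, 79 with Grin1, 38 with Grin2a and 1 with Grin2b, and by 0 genes with ENSRNOG00000026649, whose best match had an r of 0.79. These are the highest of many values and are given as a description.

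Grin1 had a median of 667 CPM in the 8 libraries that stood apart on the first component (range 646 to 748) and of 730 CPM in the 16 (range 672 to 785). Medians in the same order were 190 and 202 CPM for Grin2a, 70.1 and 75.8 CPM for Grin2b, 506 and 542 CPM for Gria1 and 36.1 and 38.7 CPM for ENSRNOG00000026649, with overlapping ranges. In tissue homogenates, fewer cells of a type and less RNA per cell cannot be told apart, and the part of this component in the levels was not tested. The surrogate variable of the alternative fit had an absolute correlation of 0.996 with this component. With it, the log2 fold changes for corticosterone averaged over training were 0.05 for Grin1, 0.01 for Grin2a and 0.13 for Grin2b. They were -0.05 for Gria1 and -0.01 for ENSRNOG00000026649, and 0 of the 5 rows were called. With only the 16 libraries, 0 of the 5 rows were called in any of the 5 comparisons, and 0 of the 25 ratio tests passed. Calls among all genes were 47 for corticosterone averaged over training, 10 in untrained and 15 in trained rats. The corticosterone estimate for Gria1 in trained rats was -0.25 and the Grin2a to Grin2b difference there was -0.30. These values rest on trained corticosterone libraries 3, 18 and 28 and trained vehicle libraries 10, 20, 25 and 35. Library 3 was the lowest of all libraries in Gria1 and in this ratio, and library 20 the highest in this ratio. The Gria1 and Grin2a correlation was 0.90 within the 8 libraries and 0.83 within the 16.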

How the data were processed

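The authors deposited 1 table of raw counts, whole numbers for 32883 Ensembl gene identifiers with 5 summary rows of the read counter, in 24 library columns, each matched to a sample by its title. The build was rn6 and the tools named were STAR 2.7.0b, HTSeq 0.6.1, MultiQC and FastQC, per the submitters' processing notes. Not given in the sources used here are the annotation release and strand setting, so reads of overlapping genes may be misassigned. Per the labels' protocols, mRNA was enriched and stranded paired-end libraries were made. No molecular identifiers are named. Reads assigned to genes were 59.8% to 62.6% of a column, and the summary rows were left out.

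The 14838 genes kept by filterByExpr entered the quasi-likelihood test of edgeR 4.0.16 (R 4.3.3), with TMM scaling and 1 model of 4 group means, with Benjamini-Hochberg adjustment over all genes and calls under 0.05. SEs are the log2 fold change over the root of F. Log2 CPM used a prior count of 2. Ratios were tested by permutation, exact within a training state and otherwise with 1e+05 resamples of labels within the other factor, and adjusted over 25 tests. Alternatives were DESeq2 1.42.0, other factors, no filter, 1 surrogate variable (sva 3.50.0), fits of 2 groups and fits without libraries. The scripts were tested on simulated data. The rows named are the 5 given with the choice and, for each, the gene whose log2 CPM was most correlated with it. Members and lists were chosen with earlier results of these data known. One identifier, that of the best match of ENSRNOG00000026649, is not printed.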

Additional observations from a re-analysis of the deposited data

Results flagged for a closer look

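Each value below lay apart from the rest of its group by Dixon's criterion at the 95% level, which sets the gap to the nearest library against the group's whole range. Of 40 sets of values examined (5 rows and 5 ratios in 4 groups), 8 held such a library. Chance gives about 1 in 20 for a single set, but the ratios are made from the same rows in the same libraries. The sets are therefore not independent, and the 8 cannot be set against that rate.

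Trained vehicle library 10 accounted for 5 of the 8. Its Gria1 level of 417 CPM and its Grin2a level of 167 CPM were below the other 4 libraries, the nearest of which were at 541 and 197 CPM. Its log2 ratios were -0.81 for Gria1 to Grin1 (nearest -0.37), -2.13 for Grin2a to Grin1 (nearest -1.86) and 3.35 for Gria1 to ENSRNOG00000026649 (nearest 3.78). Its Grin1 level of 732 CPM was not marked.

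In trained corticosterone library 3, ENSRNOG00000026649 was at 43.6 CPM, with the nearest other library at 38.0 CPM. In untrained corticosterone rats, library 14 had a log2 ratio of Gria1 to ENSRNOG00000026649 of 4.08 (nearest 3.87), and library 4 had a log2 ratio of Gria1 to Grin1 of -0.48 (nearest -0.44) in a group whose other 5 libraries lay close together.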

How the results depend on the processing

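No paired analysis was possible because each sample number occurs in 1 group only. None of the 5 rows was called in any alternative (0 of 785 fits of a row, smallest edgeR or DESeq2 adjusted p = 0.467), and 0 ratio tests of 700 passed (smallest adjusted p = 0.442, permutation tests). Signs changed in 40 of 600 fits and 16 of 600 ratio tests that left out 1 library. Other sign changes, on the log2 scale, came for corticosterone averaged over training with upper-quartile factors (Grin1 -0.0029) and 1 surrogate variable (Grin2a 0.0099). With 1 surrogate variable they also came in untrained rats for ENSRNOG00000026649 (0.00091) and in trained rats for Grin1 (0.046). Without the 8 libraries apart on the first component they came in trained rats for Grin1 (0.023) and ENSRNOG00000026649 (0.0038), and for the interaction of the latter (0.017). In untrained rats the same exclusion turned the ratios Grin2a to Grin2b (-0.045), Grin2a to Grin1 (-0.0073), Grin2b to Grin1 (0.038) and Gria1 to Grin1 (-0.032). Medians gave another sign for Grin2a to Grin2b for training (0.0087) and, for corticosterone in untrained rats, Grin2b to Grin1 (0.066), Gria1 to ENSRNOG00000026649 (-0.0101) and Gria1 to Grin1 (-0.013). Without trained vehicle library 10 and trained corticosterone library 3, chosen after seeing the data, training estimates turned for Gria1 (0.0034), Grin2a to Grin2b (0.025), Grin2a to Grin1 (0.0031) and Gria1 to Grin1 (0.016), and the correlation of Gria1 with ENSRNOG00000026649 became 0.31. With group means subtracted, 5 pairs of rows passed in place of 3. The added pairs were Grin1 with Grin2b (r = 0.47, permutation test, adjusted p = 0.0388) and Grin2b with ENSRNOG00000026649 (r = 0.50, permutation test, adjusted p = 0.0335). These tests treated the values left after subtraction as independent and made no allowance for the group means estimated from the same libraries. Their p-values are therefore too small, and whether the added pairs pass cannot be decided from them. Among the genes tested in each fit, calls for corticosterone fell without the 8 libraries from 138 to 47 (averaged), from 53 to 10 (untrained) and from 24 to 15 (trained). Fits of fewer libraries filtered the genes anew and DESeq2 did not use this filter, so the counts are not over 1 shared set of genes. They were 13 in trained rats with only the 2 groups compared, and with DESeq2 89 in untrained and 60 in trained rats. Leaving out each library in turn gave 97 to 154, 33 to 62 and 14 to 27 calls. Calls in untrained rats fell to 33 without untrained vehicle library 7, untrained vehicle library 41 or untrained corticosterone library 39 and to 34 without untrained corticosterone library 29, and in trained rats to 14 without trained vehicle library 10. Estimates that changed sign in this way ranged, for corticosterone averaged over training, from -0.011 to 0.019 (Grin1), -0.043 to 0.010 (Grin2a), -0.046 to 0.0017 (Grin2a to Grin1) and -0.069 to 0.035 (Gria1 to ENSRNOG00000026649). In untrained rats the ranges were -0.013 to 0.046 (Grin1), -0.041 to 0.083 (Grin2b), -0.030 to 0.050 (Gria1) and -0.047 to 0.0061 (ENSRNOG00000026649), and for ratios -0.00090 to 0.066 (Grin2a to Grin1), -0.042 to 0.037 (Grin2b to Grin1), -0.0053 to 0.070 (Gria1 to ENSRNOG00000026649) and -0.021 to 0.025 (Gria1 to Grin1). In trained rats they were -0.033 to 0.018 (Grin1) and -0.18 to 0.027 (Gria1 to ENSRNOG00000026649, the latter without trained corticosterone library 3). For training they were -0.019 to 0.0088 (Grin1), -0.057 to 0.0066 (Grin2b), -0.064 to 0.0070 (Grin2a to Grin2b) and -0.052 to 0.0072 (Grin2b to Grin1), and for the interaction -0.055 to 0.0035 (Grin1). The cause of these changes was not tested.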
